A study of Mus musculus with 6 samples.

Results

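NF-kB subunits and the inhibitors that bind them form a control loop whose own genes were measured here at the level of RNA. The 9 genes described were chosen by a fixed list of names: the subunit genes Nfkb2, Rel, Rela and Relb, the cytoplasmic inhibitor genes Nfkbia, Nfkbib and Nfkbie, and the nuclear IkB genes Nfkbiz and Bcl3. They are 9 of 19926 genes measured, each through a single probe set. These names, and the gene lists used below, were chosen with earlier results of these data known. The RNA came from astrocytes, glial cells that support neurons, taken into primary culture from C57BL/6J mice. A group of 3 samples received tumour necrosis factor (TNF), an inflammatory cytokine, at 50 ng/mL for 24 h. The other 3 samples were labelled control at 24 h, and no vehicle is named for them. Samples carry the replicate numbers 1 to 3 in each group, and the study as a whole asks whether NF-kB activation moves astrocytes towards neural progenitors. NF-kB was not blocked in either group. The labels do not say whether replicates were separate cultures or animals, so a p-value here reflects the scatter among the samples at hand, some of which may be technical.

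NF-kB transcription factors are dimers of Rel family proteins. In resting cells, IkB proteins mask the dimers and hold them in the cytoplasm. TNF binding to its receptor activates the IkB kinase complex, which marks IkB-alpha, IkB-beta and IkB-epsilon for ubiquitination and destruction, and the freed dimers enter the nucleus. Several NF-kB target genes encode IkB proteins, which then pull the dimers off DNA again. A slower, non-canonical branch processes the product of Nfkb2 so that it works with RelB. Bcl-3 and IkB-zeta are nuclear relatives of the IkBs that bind subunit homodimers on DNA and change what they do there. In astrocytes, NF-kB is known as a main driver of inflammatory gene expression.

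Dimers of NF-kB bind DNA at kB sites, and some promoters of the family carry such sites. The promoter windows of RefSeq, build GRCm38.p6, were searched on both strands for the NF-kB consensus (the kB motif, 10 bases). A window runs from 250 bases before an annotated start to 50 after it. Windows were given for 7 of the 9 genes, matched by gene identifier, with 3 starts for Nfkb2 and 1 for each of the others. Relb and Nfkbiz had none. The starts of Rel, Nfkbia, Nfkbib and Nfkbie were at the 5′ end of the annotated gene. Those of Nfkb2, Rela and Bcl3 were not. The stretches below are those of the genes with a match, ordered by how far the RNA differed between groups. They cover the 150 bases before the start (the first of the 3 starts for Nfkb2), or the 30 bases around the match for Bcl3, written 5′ to 3′ in the gene's direction. Capitals mark the matches, and matches that overlap on the opposite strands are joined.
Nfkbie, chr17:45555550-45555699 (plus strand): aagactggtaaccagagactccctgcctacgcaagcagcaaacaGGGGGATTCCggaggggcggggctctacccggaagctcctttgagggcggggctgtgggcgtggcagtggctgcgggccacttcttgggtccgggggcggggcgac
Nfkbia, chr12:55492648-55492797 (minus strand): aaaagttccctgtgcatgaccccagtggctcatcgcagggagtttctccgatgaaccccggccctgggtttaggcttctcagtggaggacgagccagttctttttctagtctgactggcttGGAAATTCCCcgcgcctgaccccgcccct
Bcl3, chr7:19822734-19822763 (minus strand): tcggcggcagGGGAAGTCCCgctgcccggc
Nfkb2, chr19:46304587-46304736 (plus strand): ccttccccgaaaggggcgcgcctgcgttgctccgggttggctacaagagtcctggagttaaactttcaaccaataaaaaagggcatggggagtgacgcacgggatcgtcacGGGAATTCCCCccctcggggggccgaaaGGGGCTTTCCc
Rel, chr11:23770970-23771119 (minus strand): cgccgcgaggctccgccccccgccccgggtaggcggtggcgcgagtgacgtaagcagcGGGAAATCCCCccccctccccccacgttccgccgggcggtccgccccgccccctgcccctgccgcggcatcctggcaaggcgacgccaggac

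The match of Nfkbie began 106 bases before the start and that of Nfkbia 29 bases before it. Nfkb2 had matches beginning 39 and 11 bases before its first start and further ones in the windows of its other starts, of which those windows share 1 site. The match of Rel began 92 bases before the start, and that of Bcl3 began 2 bases after it. The 2 genes whose windows held no match are shown for comparison.
Nfkbib, chr7:28766645-28766794 (minus strand): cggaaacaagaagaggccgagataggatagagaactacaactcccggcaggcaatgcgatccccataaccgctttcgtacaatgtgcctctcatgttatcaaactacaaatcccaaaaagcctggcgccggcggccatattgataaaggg
Rela, chr19:5637391-5637540 (plus strand): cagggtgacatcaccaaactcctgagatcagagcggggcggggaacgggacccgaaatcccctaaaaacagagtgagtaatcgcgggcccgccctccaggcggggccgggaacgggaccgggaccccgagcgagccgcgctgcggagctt

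A match was present for 5 of the 7 genes, a share of 71.4%, against 9.55% of the 27025 genes with a window and 8.46% of the 32851 windows. Among genes tested on the arrays that also had a window, 11.0% of 15605 had a match. Of the genes with a window, the share was 21.5% of 594 called higher with TNF and 13.2% of 522 called lower, by the test given below. Called genes without a window are not counted here. These shares are descriptions with no test. The motif is rich in G and C, as were the windows of the family, with a median G and C content of 65.7% against 52.7% over all windows. Of all windows with at least 60% G and C, 13.3% held a match. A match says only that these letters are in the window, and the arrays measured no binding.

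**Figure D1:**
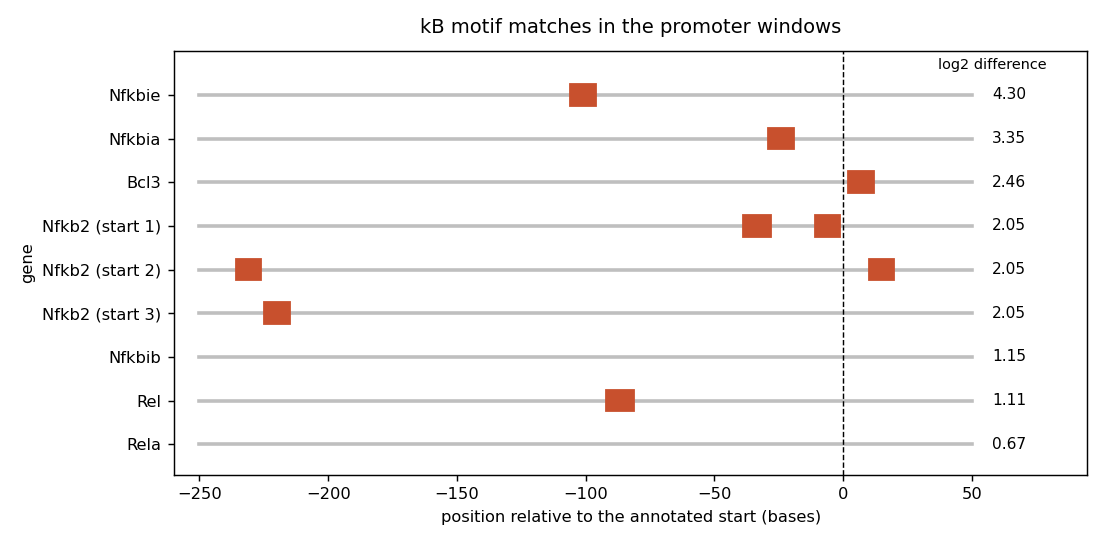
Map of kB motif matches (filled boxes, 10 or 11 bases long) in the promoter windows of the 7 genes, against distance in bases from the annotated start (dashed line). Genes are ordered by the log2 difference of their RNA, TNF minus control, given at the right. The windows of Nfkbib and Rela, at 1.15 and 0.67, hold no match, and that of Rel, at 1.11, holds 1.

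All 9 genes were higher with TNF than in controls on every array. With limma, fitted across all 19926 genes, 9 of 9 passed as higher at a Benjamini-Hochberg adjusted p under 0.05 and 0 as lower, where 3.87% of all genes tested passed as higher and 3.33% as lower. The median log2 difference of the 9 was 2.05, or 4.14-fold, and that of all genes was 0.00. The 3 TNF arrays lay above the 3 control arrays for all 9, which was true of 12.3% of all genes. At an adjusted p under 0.01, 8 of the 9 passed as higher, against 1.94% of all genes, and 8 of the 9 passed with a log2 difference of at least 1, against 1.83%; Rela was the exception each time. Values are log2 signals, so a difference of 1 is a doubling of signal, and large folds are compressed on arrays. A signal depends on its probes, so levels are compared between arrays and not between genes.

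**Figure D2:**
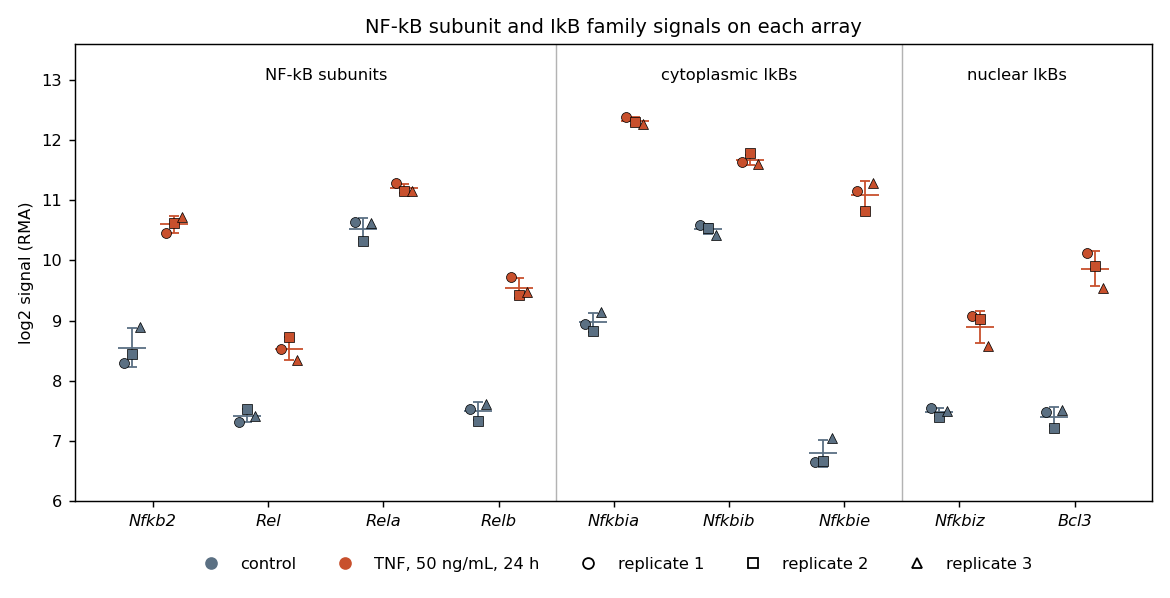
Log2 signal of each gene on each of the 6 arrays, controls in grey-blue and TNF in orange, with marker shape giving the replicate number. Horizontal bars are group means and whiskers 1 SD (n = 3). No control point reaches a TNF point of the same gene; the narrowest gap, 0.51, is that of Rela.

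Among the cytoplasmic inhibitors, the 3 genes rose by unequal amounts. Nfkbie, which encodes IkB-epsilon, was 6.64, 6.67 and 7.05 in controls 1, 2 and 3, and 11.15, 10.83 and 11.28 with TNF, given in the same order. Its lowest TNF array stood 3.78 above its highest control. The log2 difference was 4.30 with a standard error (SE) of 0.17 and n = 3 per group, a 19.7-fold increase (limma adjusted p = 2.03e-05). In order of log2 difference Nfkbie was number 18 of all genes, the highest of the family. Its 3 control values lay below the array medians of 7.14 to 7.18, and dim values may lie near background.

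Nfkbia encodes IkB-alpha, the inhibitor that is destroyed and remade fastest after a TNF signal. Its signal was 8.94, 8.82 and 9.15 in controls and 12.39, 12.31 and 12.27 with TNF. The TNF arrays stood close together, with an SD of 0.06, and the groups were 3.12 apart at their closest. The difference of 3.35 (SE 0.12, limma adjusted p = 2.03e-05) was 10.2-fold, number 53 of all genes.

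Nfkbib encodes IkB-beta, which shares the cytoplasmic role. It was 10.59, 10.54 and 10.43 in controls and 11.63, 11.78 and 11.61 with TNF, with little spread in either group. It rose 2.22-fold, with a difference of 1.15 (SE 0.11, adjusted p = 8.07e-04). The 95% interval of its difference, 0.90 to 1.40, lay below those of Nfkbia, 3.07 to 3.63, and Nfkbie, 3.92 to 4.69.

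The unequal rise was also taken within each array, where the log2 signal of Nfkbib was subtracted from that of its relatives. Nfkbia minus Nfkbib was -1.66, -1.72 and -1.29 in controls and 0.76, 0.53 and 0.66 with TNF. This ratio shifted by 2.20 log2 units, from -1.55 ± 0.23 to 0.65 ± 0.12 (SD, n = 3). Nfkbie minus Nfkbib shifted by 3.15, from -3.74 ± 0.30 to -0.59 ± 0.32. The groups did not overlap in either ratio. The exact two-sided permutation test gave p = 0.10 for each, also after adjustment over the 3 ratios tested, which is the smallest p that 3 against 3 arrays allow. Only the shifts are read here, since the sign of a ratio between probe sets has no meaning. Each shift restates the gap between the log2 differences of its 2 genes given above, and adds no separate support to them.

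Of the nuclear IkB genes, Bcl3 rose most. Bcl3, whose protein binds homodimers of NF-kB subunits on DNA, was 7.48, 7.22 and 7.51 in controls and 10.13, 9.91 and 9.55 with TNF. TNF 3 was the lowest of the treated arrays but still 2.04 above the highest control. The difference of 2.46 (SE 0.17) was 5.5-fold (limma adjusted p = 1.82e-04). Nfkbiz, which encodes IkB-zeta, was 7.54, 7.40 and 7.5 in controls and 9.07, 9.02 and 8.58 with TNF, again lowest in TNF 3. It rose 2.66-fold, with a difference of 1.41 (SE 0.15, adjusted p = 0.00144). Another nuclear relative, Nfkbid, differed by 0.52 (SE 0.14, adjusted p = 0.0723) from 6.38, 6.19 and 6.63 to 6.85, 6.85 and 7.05. Its groups did not overlap, with TNF higher, as was true of 12.3% of all genes. It passed with the replicate number as a block (adjusted p = 0.00492), where 9.73% of all genes passed as higher. Nfkbid was dim and was removed by the filter on dim genes listed in the closing section.

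The 4 subunit genes listed rose. Another subunit gene of the family was not analysed here. The genes of the non-canonical dimer, Nfkb2 and Relb, rose by almost the same amount. Nfkb2 was 8.29, 8.45 and 8.90 in controls and 10.45, 10.62 and 10.72 with TNF, and control 3 was the highest control. It rose 4.15-fold (log2 difference 2.05, SE 0.17, limma adjusted p = 4.52e-04). Relb was 7.53, 7.33 and 7.62 in controls and 9.73, 9.42 and 9.48 with TNF, with groups 1.80 apart at their closest. It rose 4.14-fold (log2 difference 2.05, SE 0.13, adjusted p = 1.48e-04).

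Rel encodes c-Rel, best known from lymphocytes. Its signal was 7.32, 7.53 and 7.42 in controls and 8.53, 8.73 and 8.34 with TNF, and the difference of 1.11 (SE 0.13, adjusted p = 0.00276) was 2.16-fold. Rela, whose protein carries the activation domain of the main TNF-responsive dimer, changed least of the family. It was 10.64, 10.33 and 10.62 in controls and 11.28, 11.15 and 11.16 with TNF, with groups 0.51 apart at their closest. It rose 1.59-fold (log2 difference 0.67, 95% interval 0.38 to 0.96, limma adjusted p = 0.0171). The call of Rela was lost without control 2 (adjusted p = 0.0542), TNF 1 (0.0621) or TNF 2 (0.0573), and without both arrays of replicate 3 (0.0762). Control 2 was its lowest array, and without it the difference was 0.57.

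Within each array Relb minus Rela was -3.11, -3.0 and -2.99 in controls and -1.56, -1.73 and -1.68 with TNF. The ratio thus shifted by 1.38 log2 units, from -3.04 ± 0.06 to -1.66 ± 0.09 (SD, n = 3), with no overlap (exact permutation p = 0.10, the smallest possible, and 0.10 adjusted over the 3 ratios). This shift, too, restates the log2 differences of the genes given above. In order of log2 difference the family ran from Nfkbie through Nfkbia, Bcl3, Nfkb2 and Relb to Nfkbiz, Nfkbib, Rel and Rela. The intervals of Nfkbie and Nfkbia overlapped those of no other gene of the family. The intervals of Bcl3, Nfkb2 and Relb overlapped one another, as did those of Nfkbiz, Nfkbib and Rel. That of Nfkbiz also reached into those of Nfkb2 and Relb, and that of Rela into those of Nfkbib and Rel. No direct test was made between these neighbours.

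**Figure D3:**
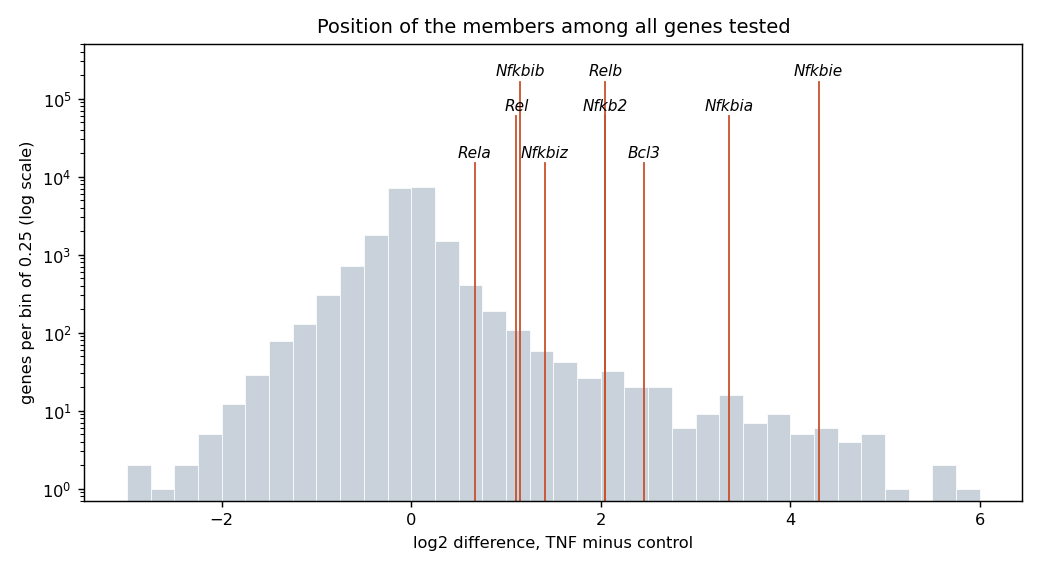
Histogram of the log2 difference, TNF minus control, of all 19926 genes in bins of 0.25 (vertical axis on a log scale), with the 9 genes marked by orange lines. The lowest of them, Rela at 0.67, was number 670 of all genes, and the highest, Nfkbie at 4.30, was number 18; Nfkb2 and Relb coincide at 2.05.

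All 9 differences held their sign in every pair of samples with the same number. They ran from 0.65 to 4.5 in pair 1, from 0.82 to 4.16 in pair 2 and from 0.54 to 4.24 in pair 3. Pair 3 gave the smallest difference for 7 of the 9 genes, the exceptions being Nfkbib and Nfkbie. The same was true of 35.5% of the 771 genes called higher. With the replicate number as a block, the 9 genes again passed as higher, among 9.73% of all genes.

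Bulk RNA from a culture cannot tell apart a change in the number of cells of a type from a change in RNA per cell. Astrocyte genes had strong signals in both groups, with Gfap, the astrocyte filament gene, between 11.06 and 12.40 and Slc1a3, a glutamate transporter, between 12.17 and 12.80. Strong signals were not limited to astrocyte genes. Acta2, of the fibroblast and mural list, lay between 12.01 and 13.46, and Stmn2, of the neuron list, between 11.63 and 12.42. Many other markers of those lists were dimmer. Of 11 astrocyte markers 0 rose and 3 fell, against 3.87% and 3.33% of all genes. Those that fell were Glul, Gja1 and Aldoc, with differences of -0.88, -1.0 and -1.01. With the replicate block 2 were higher and 6 lower, where 9.73% and 11.8% of all genes passed. At an unadjusted p under 0.05 the counts were 2 and 4. Gfap itself differed by -0.51, and Aqp4 and Slc1a2 by 0.6 each. S100b and Gjb6 were at 6.74 or less on every array. Microglia, the immune cells of the brain, are a usual companion of cultured astrocytes and also use NF-kB. The mean log2 signal of 17 microglia markers was 7.14, 6.39 and 7.96 in controls and 7.55, 6.5 and 8.01 with TNF, so it differed more between replicate numbers than between groups. That mean was higher with TNF at each replicate number. Of the microglia markers 0 of 17 passed with limma (1 higher and 0 lower unadjusted, where 9.15% of all genes were higher and 9.73% lower). With the replicate block 3 passed as higher and 0 as lower, against 9.73% and 11.8% of all genes. The 3 were Itgam, Cd68 and C1qb, with differences of 0.47, 0.57 and 0.56. RMA signals have a floor and none of the markers is at 0. Endothelial markers had 0 higher and 1 lower of 10, and fibroblast and mural markers 0 higher and 1 lower of 11 (3 lower with the block). Neuron markers had 0 higher and 1 lower of 10 (1 higher and 2 lower with the block and also unadjusted), and oligodendrocyte markers 0 higher and 2 lower of 9. Their part in the results was not tested further.

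Around the family, 80 other genes of the pathway were listed by role and 73 were measured. Of these 27 rose and 2 fell (limma, adjusted p under 0.05), against 3.87% and 3.33% of all genes, and their median log2 difference was 0.31. The counts were 38 higher and 4 lower with the replicate block, where 9.73% and 11.8% of all genes passed. At an unadjusted p under 0.05 they were 36 and 3, against 9.15% and 9.73% of all genes. Each role with 0 called lower below also had 0 lower at that level. Of the 27 that rose in the main fit, 14 were among 19 textbook target genes. The next paragraphs give the counts by role.

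Of 12 receptors and adaptors 5 rose and 0 fell, with a median difference of 0.38. Birc3 and Birc2, ubiquitin ligases recruited to the TNF receptor, rose 8.26-fold (log2 difference 3.05, SE 0.11, adjusted p = 2.03e-05) and 2.52-fold (1.33, SE 0.11). Traf2, the adaptor that brings them there, rose 1.97-fold from 8.23, 8.24 and 8.11 to 9.13, 9.18 and 9.22. The receptor Tnfrsf1b and the costimulatory receptor Cd40 passed with differences of 0.84 and 0.87. Tnfrsf1b no longer passed without control 1 (adjusted p = 0.0608), TNF 2 (0.0542) or both arrays of replicate 3 (0.103). Cd40 no longer passed in 5 of the 6 fits that left out a single array, all but that without TNF 1 (adjusted p up to 0.0918, without TNF 2), nor without replicate 3 (0.156). With the block 8 passed as higher and 1, Traf1, as lower (difference -0.45, block adjusted p = 0.0237); without control 1, without TNF 2 or without replicate 3 there were 3 higher.

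Of 11 kinases and their partners 3 rose and 0 fell, with a median of 0.31. The ones that rose were the IKK-related kinases Ikbke and Tbk1 and the kinase Map3k8, at 2.80-fold, 1.5-fold and 1.89-fold. Ikbke went from 8.16, 7.90 and 7.87 to 9.35, 9.41 and 9.62 (log2 difference 1.49, SE 0.13, limma adjusted p = 5.30e-04). With any single array other than TNF 3 left out, Tbk1 no longer passed (adjusted p up to 0.118, when TNF 2 was left out), nor did it without replicate 3 (0.0571). Ikbkb, the catalytic kinase that phosphorylates IkB in the canonical branch, had a difference of 0.42 (SE 0.10, adjusted p = 0.0518), and it passed once blocked by number (adjusted p = 0.0123). The regulatory subunit Ikbkg differed by 0.13 (95% interval -0.21 to 0.46). Map3k14, the kinase of the non-canonical branch, had a difference of 0.34 (adjusted p = 0.134, or 0.0317 with the block). With the block 6 of the 11 passed as higher.

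Of 8 ubiquitin ligase genes 1 rose and 0 fell, with a median of 0.10. The gene that rose was Rnf31, the catalytic subunit of the linear ubiquitin assembly complex, at 2.13-fold (log2 difference 1.09, SE 0.12, adjusted p = 0.00169). Its partner subunits Sharpin and Rbck1 differed by 0.29 and 0.23 and did not pass, and Sharpin passed with the block (adjusted p = 0.0423). Btrc and Fbxw11, the paralogs that recognise phosphorylated IkB, differed by -0.01 (95% interval -0.25 to 0.23) and 0.03 (-0.22 to 0.27). Skp1, a shared subunit of their complex, differed by -0.23 (adjusted p = 0.352).

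Of 12 negative regulators 4 rose and 1 fell, with a median of 0.11. Tnfaip3, the ubiquitin-editing enzyme that terminates TNF receptor signalling, rose 10.7-fold from 6.71 ± 0.19 to 10.13 ± 0.13 (SD, n = 3). Its difference was 3.42 (SE 0.14, adjusted p = 2.03e-05), beside 3.35 for Nfkbia. Tnip1, which binds the Tnfaip3 protein, rose 4.68-fold, and Zc3h12a, a ribonuclease that degrades inflammatory transcripts, 1.87-fold. N4bp1 passed with a difference of 0.54 (adjusted p = 0.0416), but not when any single array was left out (adjusted p up to 0.15, without TNF 2) or without replicate 3 (0.161). Tnip3 differed by 0.46 and did not pass in the main fit (limma adjusted p = 0.0877), but it passed with the block (adjusted p = 0.0106). Pdlim2, a nuclear ligase for RelA, fell by 0.81 log2 units (SE 0.10, adjusted p = 0.00331), from 9.37, 9.35 and 9.44 to 8.51, 8.63 and 8.58. Without control 1 there were 2 higher, and Zc3h12a lost its call (adjusted p = 0.0528). The deubiquitinase Cyld differed by -0.13 (95% interval -0.38 to 0.13).

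Of 10 nuclear partners 0 rose and 1 fell. At an unadjusted p under 0.05 the counts were 0 higher and 2 lower, against 9.15% and 9.73% of all genes. Setd7, a lysine methyltransferase, fell by 0.57 log2 units (SE 0.13, adjusted p = 0.04) and did not pass when any single array was left out (adjusted p up to 0.130, for control 2) or without replicate 3 (0.133). Rps6ka5, a kinase of RelA and histones, differed by -0.54 and passed as lower with the block (adjusted p = 0.00253). Ing4 and Kat5, parts of histone acetyltransferase complexes, differed by 0.19 and 0.17 and did not pass (adjusted p = 0.432 and 0.487). The coactivators Crebbp and Ep300 differed by -0.02 (95% interval -0.25 to 0.22) and -0.03 (-0.26 to 0.21). Of 19 textbook target genes 14 rose and 0 fell, with a median of 1.36. Tnfaip2, Lcn2, Vcam1 and Icam1 had the smallest p-values, with differences of 3.96, 4.36, 3.26 and 3.15. Bcl2l1, at -0.04, was the only target gene below 0. With the block 16 passed as higher, Cxcl1 (difference 0.83) and Ptgs2 (0.29) being added. Cflar lost its call in 5 of the 6 fits without a single array, Gadd45b in 4 and Nos2 in 1.

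**Figure D4:**
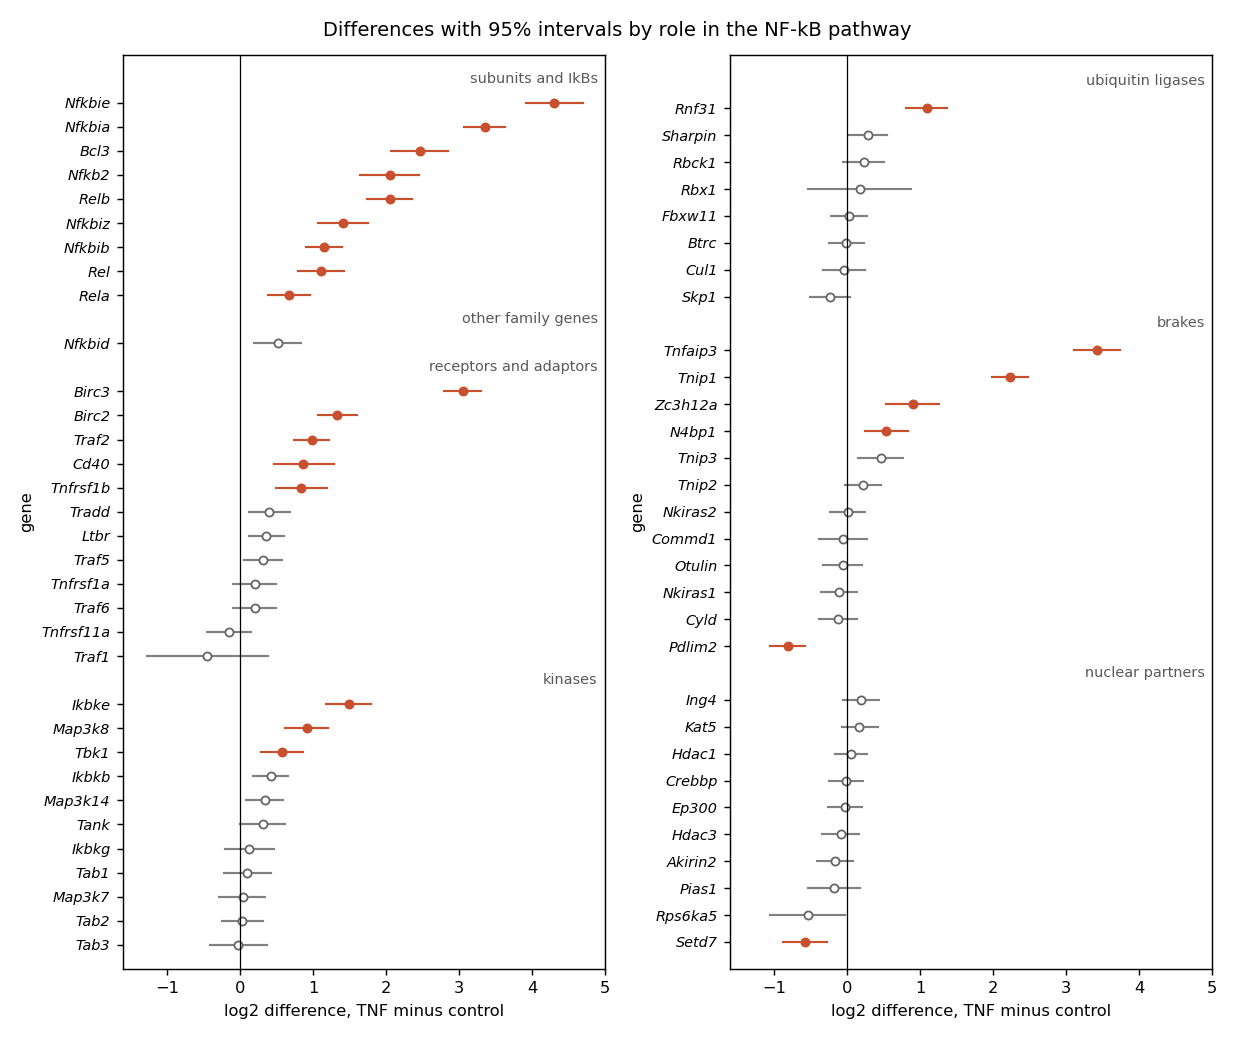
Log2 difference, TNF minus control, with its 95% interval from limma (n = 3 per group), for the 9 subunit and inhibitor genes and 54 other genes of the pathway by role. Filled orange points passed at an adjusted p under 0.05 and open points did not. All 9 genes of the family lie to the right of 0, as do Birc3, Tnfaip3 and Tnip1, while Btrc, Fbxw11 and Cul1 lie within 0.04 of 0.

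The mean log2 signal of the 9 genes was 8.33, 8.25 and 8.47 in controls and 10.49, 10.42 and 10.33 with TNF. Among 2332 other genes whose signal ranged over at least 1 log2 unit, Itga2 and Rsl1 (both Pearson r = 0.999 over the 6 arrays), Tnfaip3 (0.999), Psmb8 (0.999) and Bach1 (0.998) followed this mean most closely. The 6 points of each fall into a control and a TNF cluster, so these correlations largely restate the group difference and are given without a p. Itga2, an integrin subunit, went from 7.38, 7.37 and 7.56 to 9.32, 9.18 and 9.19, and Bach1, a repressor of oxidative stress genes, from 8.80, 8.68 and 8.84 to 9.86, 9.88 and 9.85.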

How the data were processed

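Per the submitters' processing notes, the authors used RMA and limma (versions not stated here) on 6 Affymetrix Mouse Gene 1.0 ST arrays. The deposited log2 signals cover 35544 probe sets; the base was read from the values, 2.04 to 14.37. RMA compresses large folds, and dim values may lie near background. Array medians were 7.14 to 7.18; the number of arrays limits the precision.

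Of the probe sets, 21777 had exactly 1 gene symbol, 1621 several and 12146 none. Only the first kind was used, with the highest-mean probe set per gene (19926 genes). Listed genes without one were not analysed here.

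Tests used limma 3.58.1 (R 4.3.3; lmFit, eBayes, two-sided) and were tested on simulated data; ratios used scipy 1.17.1. Same-numbered samples deviated together (correlations 0.55, 0.65 and 0.75), so numbers were taken as pairs from the values. The simulated noise was independent between arrays, so the simulation did not cover this shared deviation. Pairs were used in the blocked fit and in the differences by pair. The main limma fit and the permutation tests were unpaired. Blocked counts are given for each list where they differ. Alternatives are given in the closing section.

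Named pathway genes were the 4 of smallest p per role list, and like patterns the 5 of highest correlation. Cd40, Traf1, Ikbkg, Map3k14, Btrc, Fbxw11, Cul1, N4bp1, Cyld, Crebbp, Ep300, Bcl2l1, Tnip3, Cxcl1, Ptgs2, Cflar, Gadd45b, Nos2 and the markers were named after their values were seen. The members and lists were chosen with earlier results of these data known.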

Additional observations from a re-analysis of the deposited data

How the results depend on the processing

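The 9 genes of the family were tried under 17 other settings: the replicate block, other centring, quantile normalization, a filter on dim genes, all probe sets, other variance models, array weights, another probe set per gene, each array or replicate 3 left out, a threshold on size and a stricter adjusted p. For 8 of the 9 direction and call held under all 17; for Rela the call was lost without control 2, TNF 1, TNF 2 or replicate 3, at an adjusted p under 0.01 and at a log2 difference of at least 1, and its difference ran from 0.57 to 0.73. Each gene of the family has 1 probe set, so another probe set per gene, all probe sets and the filter on dim genes kept its values. Those settings could alter only its standard error and adjusted p. The replicate block, the other variance models and both thresholds also left each difference as in the main fit. Direction was therefore not tried by any of these settings. The replicate block changed no call in the family. The 2 genes of the pathway called lower became 4 with the replicate block, 1 over all probe sets, 1 at an adjusted p under 0.01 and 0 at a log2 difference of at least 1; leaving out 1 array or replicate 3 gave 1 in each fit. The count of higher pathway genes ran from 19 to 25 without 1 array. The ratios of 2 members shifted by 1.33 to 1.42 (Relb to Rela), 2.12 to 2.34 (Nfkbia to Nfkbib) and 3.02 to 3.33 (Nfkbie to Nfkbib) without 1 array. Causes were not tested.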
